A study of Mus musculus with 6 samples.

Results

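The genes described here are 10 named components and targets of the YAP/TAZ pathway, out of 22740 genes counted in sorted cells of B16-F3, a mouse melanoma line. They were chosen by gene name and all 10 are in the count table: Yap1 and Wwtr1, which encode the co-activators YAP and TAZ, their DNA-binding partner Tead1, the kinase gene Lats2, the scaffold genes Ajuba, Amotl1 and Amotl2, and the target genes Ctgf, Cyr61 and Ankrd1. Cells of the cultured line rich in pigment (HPC, high-pigmented) were separated from cells poor in it (LPC, low-pigmented) by flow cytometry on the light scatter that melanin causes, and 3 libraries of transcript 3' ends were made from each population. Both groups come from 1 cell line grown in the same medium, so the comparison is between cells of one line that differ in pigment, and the labels do not say whether equally numbered libraries come from separate cultures or sorts. The p-values therefore cover the variation among these 6 libraries alone, and that variation may be technical.

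The Hippo pathway is a kinase cascade in which the MST kinases activate the LATS kinases, and LATS phosphorylates YAP and TAZ so that they stay in the cytoplasm. Unphosphorylated YAP and TAZ enter the nucleus, bind TEAD factors and switch on genes such as Ctgf, Cyr61 and Ankrd1, together with Amotl2, Ajuba and Lats2, whose products in turn act on the pathway. YAP and TAZ are controlled largely by phosphorylation and location, which mRNA counts do not measure. In melanoma, YAP/TAZ target genes are known for their link to the less differentiated, invasive states of the tumour cells.

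The mRNAs of the effectors themselves stood at nearly the same level in both populations, with Yap1 at 174 ± 5.51 CPM in HPC, against 175 ± 3.26 CPM in LPC (SD, n = 3 each; CPM, counts scaled to library size). The 3 members with the largest differences, Ajuba, Amotl2 and Cyr61, all lay lower in HPC, by 1.53-, 1.39- and 1.61-fold. Ctgf was barely expressed and Ankrd1 had no read in any library. Of the 9 members that passed the filter on low counts, none passed edgeR's quasi-likelihood test at an adjusted p under 0.05, where 0.0419% of the 11921 genes tested did. At an unadjusted p under 0.05 there were 2 members, Ajuba and Amotl2, both lower in HPC, beside 9.37% of all genes in either direction, 5.06% higher and 4.31% lower. When the replicate number of the labels entered the model as a block, so that each HPC library was set against the LPC library of its own number, edgeR called 1 member, Ajuba, as lower in HPC, where 1.1% of all genes tested were called lower. With the block, 3 members were lower and 0 higher at an unadjusted p under 0.05, beside 8.66% of all genes lower and 10.1% higher, 18.8% in all. DESeq2 without the block also called Ajuba alone, beside 1.88% of all genes called, 0.856% lower and 1.02% higher. DESeq2 with the block called Ajuba and Amotl2, beside 4.14% of all genes, 1.54% lower and 2.59% higher, and limma-voom called none. HPC was the lower library of every number in 4 of the 9 members and the higher one in none, beside 21.3% and 19.6% of all genes tested.

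**Figure D1:**
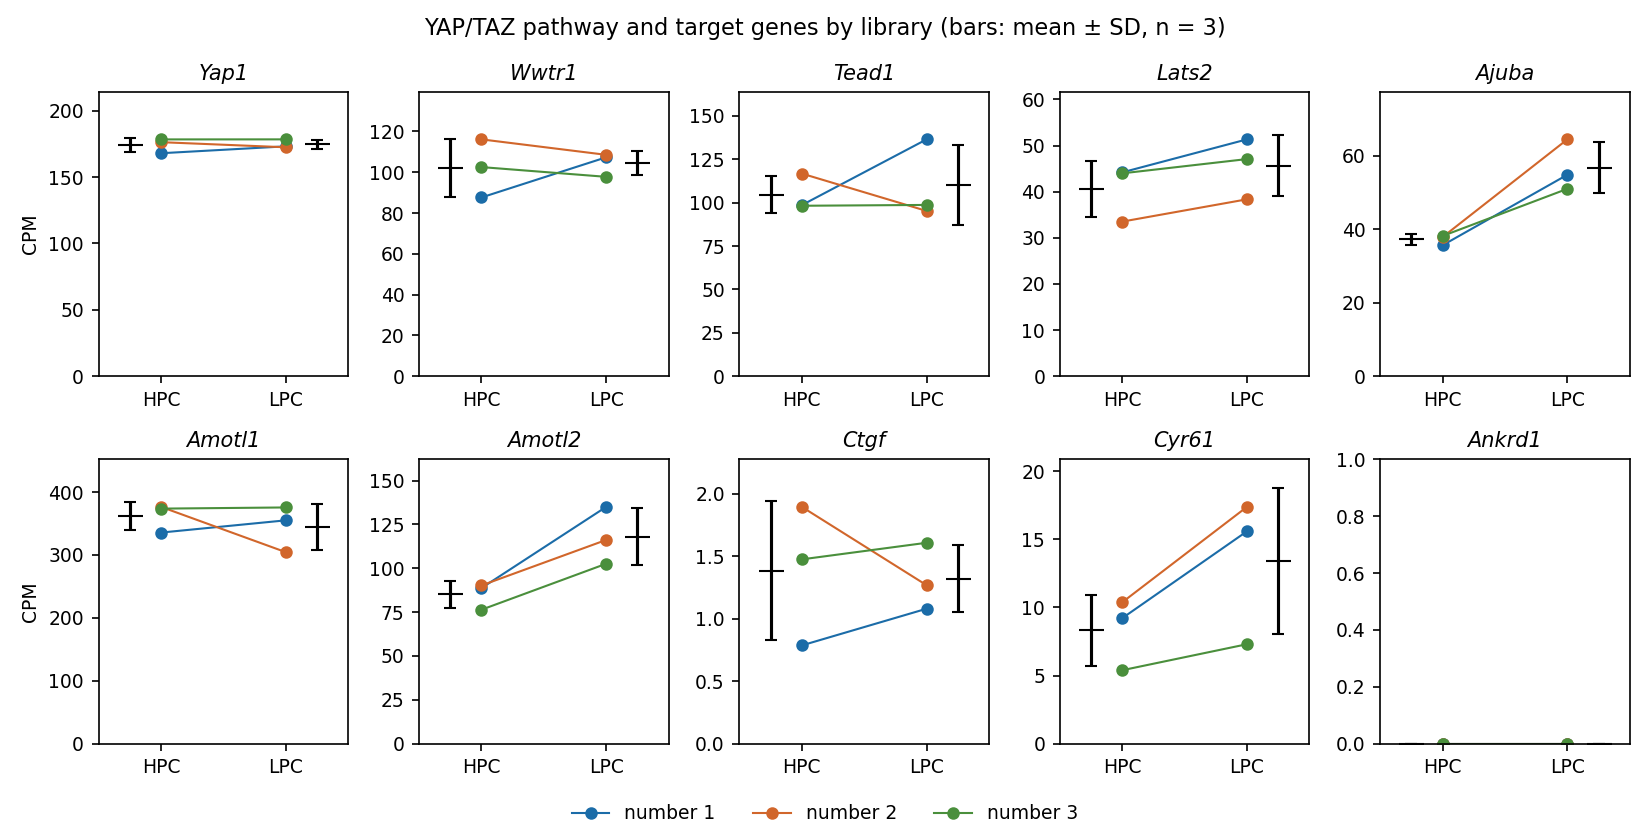
Each panel plots the level of 1 gene in CPM on a linear axis from 0, with HPC left of LPC. Points are libraries, lines join libraries of the same replicate number, and black marks give the mean ± SD over 3 libraries. Yap1 is level, Ajuba and Amotl2 are lower in every HPC library than in any LPC library, Cyr61 is lower in HPC within each number while the groups overlap, and Ankrd1 is at 0.

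Yap1, the gene of the co-activator YAP, had levels of 168, 176 and 178 CPM in the HPC libraries numbered 1 to 3, against 173, 172 and 178 CPM in the LPC libraries in the same order. The 6 libraries differed by at most 1.06-fold and the groups overlapped. Its log2 fold change, HPC over LPC throughout, was -0.0038 with a 95% interval from -0.22 to 0.22 (edgeR, adjusted p = 0.996), and its sign reversed under several alternatives. Wwtr1, the gene of TAZ, was at 87.6, 116 and 103 CPM in HPC, against 107, 109 and 97.8 CPM in LPC. HPC held both the lowest and the highest library, so the groups overlapped, and the log2 fold change was -0.03 (95% interval from -0.33 to 0.26, edgeR adjusted p = 0.97), with a reversed sign without HPC replicate 1 or LPC replicate 2. Tead1, which encodes the transcription factor that YAP and TAZ bind, was at 98.6, 117 and 98.2 CPM in HPC, against 136, 95.2 and 98.7 CPM in LPC. LPC replicate 1 stood above the other libraries, and the log2 fold change of -0.07 (95% interval from -0.44 to 0.29, edgeR adjusted p = 0.94) reversed to 0.11 without it. In GRCm38, Yap1 (ENSMUSG00000053110) spans bases 7931999 to 8004596 of chromosome 9, minus strand, Wwtr1 (ENSMUSG00000027803) bases 57455649 to 57575910 of chromosome 3, minus strand, and Tead1 (ENSMUSG00000055320) bases 112679318 to 112906807 of chromosome 7, plus strand. Each has an annotated gene overlapping it on the opposite strand, and Tead1 also Gm44462 on its own strand, so that reads of these neighbours may be counted with them.

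Lats2, the kinase gene that restrains YAP and TAZ and is itself one of their targets, was at 44.2, 33.5 and 44.0 CPM in HPC, against 51.3, 38.3 and 47.1 CPM in LPC. HPC was the lower library of each number, while the groups overlapped because both libraries numbered 2 were low. The log2 fold change was -0.17 (95% interval from -0.54 to 0.20, edgeR adjusted p = 0.81). Amotl1, a gene of the angiomotin family of scaffolds that bind YAP at cell junctions, was at 336, 376 and 374 CPM in HPC, against 355, 304 and 376 CPM in LPC. The groups overlapped, and the log2 fold change was 0.07 (95% interval from -0.20 to 0.34, edgeR adjusted p = 0.92), reversed without LPC replicate 2. Lats2 (ENSMUSG00000021959) spans bases 57689662 to 57758388 of chromosome 14 and Amotl1 (ENSMUSG00000013076) bases 14541966 to 14645056 of chromosome 9, both on the minus strand and both with overlapping annotated genes on each strand.

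Ajuba, which encodes a LIM-domain protein that binds and inhibits LATS kinases, was at 35.6, 37.9 and 38.2 CPM in HPC, against 54.9, 64.5 and 51.0 CPM in LPC. All 3 HPC libraries lay below all 3 LPC libraries, as in 7.18% of all genes tested, and the HPC libraries were close together. Ajuba averaged 37.2 ± 1.38 CPM in HPC, against 56.8 ± 6.94 CPM in LPC (SD, n = 3 each). It was 1.53-fold lower in HPC (edgeR, log2 fold change -0.61, SE 0.12, 95% interval from -0.89 to -0.33, adjusted p = 0.18). With the block the log2 fold change was -0.60 (SE 0.10, edgeR adjusted p = 0.034), and DESeq2 without the block gave an adjusted p of 0.0063. The differences on the log2 CPM scale were -0.62, -0.77 and -0.42 in the pairs numbered 1, 2 and 3. Over 17 alternatives the log2 fold change ran from -0.69 to -0.50 and the adjusted p from 3.9e-07 to 0.75. The lowest came without the pair numbered 1, a fit with 1 residual degree of freedom that called 2947 of 12018 genes. The blocked call ended without the pair numbered 2 (edgeR adjusted p = 0.35), a fit that called 0 of 11927 genes. Ajuba (ENSMUSG00000022178) spans bases 54567472 to 54577558 of chromosome 14, minus strand, with no overlapping gene.

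Amotl2, an angiomotin family gene that is both a YAP/TAZ target and an inhibitor of YAP, was at 88.7, 90.2 and 76.4 CPM in HPC, against 135, 116 and 103 CPM in LPC. The HPC libraries were again all below the LPC libraries. Amotl2 averaged 85.1 ± 7.60 CPM in HPC, against 118 ± 16.3 CPM in LPC (SD, n = 3 each). It was 1.39-fold lower in HPC (edgeR, log2 fold change -0.47, SE 0.13, adjusted p = 0.30). With the block it stayed just outside the threshold with edgeR (log2 fold change -0.47, adjusted p = 0.051) and passed with DESeq2 (adjusted p = 0.014). Over 17 alternatives its adjusted p ran from 0.00058 without the pair numbered 1, again with 1 residual degree of freedom, to 0.90. The pair differences were -0.61, -0.36 and -0.43. Amotl2 (ENSMUSG00000032531) spans bases 102716672 to 102733418 of chromosome 9, plus strand, with no overlapping gene.

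Cyr61, which encodes a secreted matrix protein and is among the most used readouts of YAP/TAZ activity, was at 9.21, 10.4 and 5.39 CPM in HPC, against 15.6, 17.4 and 7.30 CPM in LPC. The groups overlapped because the LPC library numbered 3 was below both HPC libraries numbered 1 and 2, whereas HPC was the lower library of each number. The raw counts behind these values were 164, 230 and 106 in HPC and 231, 329 and 109 in LPC. Cyr61 averaged 8.32 ± 2.61 CPM in HPC, against 13.4 ± 5.38 CPM in LPC (SD, n = 3 each; edgeR, log2 fold change -0.69, SE 0.36, adjusted p = 0.62). With the block the log2 fold change was -0.66 with an SE of 0.15 (edgeR adjusted p = 0.066), and over 17 alternatives the adjusted p ran from 0.0035 without the pair numbered 1, a fit with 1 residual degree of freedom, to 1.00. The pair differences of Cyr61 were -0.75, -0.74 and -0.43. Cyr61 (ENSMUSG00000028195) spans bases 145646976 to 145649981 of chromosome 3, minus strand, with no overlapping gene.

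Ctgf, the companion of Cyr61 in the same family of secreted proteins, had only 14, 42 and 29 counts in HPC and 16, 24 and 24 counts in LPC. These correspond to 0.786, 1.89 and 1.47 CPM in HPC, against 1.08, 1.27 and 1.61 CPM in LPC, with overlapping groups. Its log2 fold change of 0.08 had a 95% interval from -0.82 to 0.99 (edgeR adjusted p = 0.98), which includes differences as large as those of Ajuba, Amotl2 and Cyr61, and its sign reversed without HPC replicate 2 or LPC replicate 1. Ankrd1, a gene of a muscle ankyrin repeat protein and a common YAP/TAZ reporter, had 0 counts in all 6 libraries. With 108428033 counts in all, 3 counts correspond to 0.0277 CPM, the limit that a count of 0 allows over the 6 libraries for counting error alone. Ctgf (ENSMUSG00000019997) spans bases 24595442 to 24598683 of chromosome 10, plus strand, where Gm15270 overlaps it on the opposite strand, and Ankrd1 (ENSMUSG00000024803) bases 36111961 to 36120099 of chromosome 19, minus strand.

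**Figure D2:**
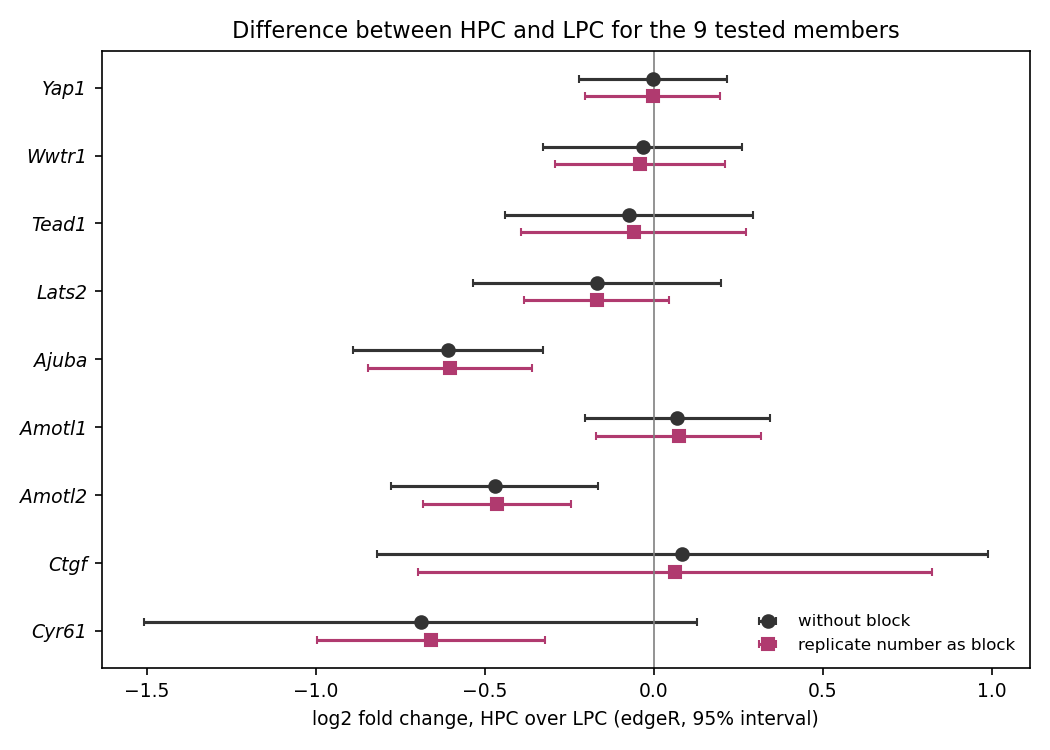
The log2 fold change of HPC over LPC is plotted for the 9 tested members with its 95% interval from edgeR, as circles without the block and as squares with the replicate number as a block. The intervals of Ajuba and Amotl2 lie below 0 in both fits, that of Cyr61 lies below 0 only with the block, and the interval of Ctgf spans from -0.82 to 0.99 without it.

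Ajuba, Amotl2 and Cyr61 all lay lower in HPC, and the members' upstream sequences were searched for the letters GGAATG or, on the other strand, CATTCC, the core of the site that TEAD factors bind. RefSeq promoter sequences on GRCm38.p6 were at hand for 8 of the 10 members, with Cyr61 under its present symbol Ccn1, and the 250 bases before the annotated start were read. The letters were found in 6 of these 8 genes, Yap1, Wwtr1, Ajuba, Amotl2, Cyr61 and Ankrd1, and not in Lats2 or Amotl1, while 12.6% of all 32851 promoters held them. The 8 genes have 10 promoter entries and are counted by gene, whereas the 12.6% counts single entries. Because the members were chosen as pathway genes and targets, their share of matches says nothing about HPC and LPC. Ajuba and Ankrd1 each held 2 matches, and 1.02% of all promoters held at least 2. The AP-1 letters TGANTCA, searched on both strands because AP-1 often binds near TEAD, were found in none of the 8 and in 6.75% of all promoters. The promoters of Ajuba and Cyr61, which were among the members lower in HPC, are shown in full, and the others as short stretches around the first match. Capitals mark the match, and each sequence reads 5′ to 3′ on the gene's own strand.
Ajuba, chr14:54577662-54577911, minus strand: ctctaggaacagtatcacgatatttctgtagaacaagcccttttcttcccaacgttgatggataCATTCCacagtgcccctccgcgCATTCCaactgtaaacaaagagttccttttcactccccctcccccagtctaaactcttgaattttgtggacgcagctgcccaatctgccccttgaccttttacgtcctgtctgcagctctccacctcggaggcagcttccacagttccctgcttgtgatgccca
Cyr61, chr3:145649986-145650235, minus strand: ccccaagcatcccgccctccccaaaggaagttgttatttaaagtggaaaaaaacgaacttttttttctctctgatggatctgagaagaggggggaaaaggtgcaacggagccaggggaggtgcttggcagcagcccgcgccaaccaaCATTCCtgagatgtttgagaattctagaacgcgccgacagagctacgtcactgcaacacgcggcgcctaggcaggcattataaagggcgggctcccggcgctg
Amotl2, chr9:102717727-102717756, plus strand: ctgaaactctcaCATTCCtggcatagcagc
Ankrd1, chr19:36120037-36120066, minus strand: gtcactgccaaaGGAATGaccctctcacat
Yap1, chr9:8004712-8004757, minus strand: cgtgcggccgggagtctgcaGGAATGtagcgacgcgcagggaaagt
Wwtr1, chr3:57576021-57576066, minus strand: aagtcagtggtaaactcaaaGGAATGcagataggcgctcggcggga
The matches of Ajuba begin 186 and 164 bases before the start, that of Cyr61 103 bases, that of Amotl2 65 bases, those of Ankrd1 210 and 123 bases, that of Yap1 141 bases and that of Wwtr1 136 bases. The stretches of Amotl2 and Ankrd1 overlap exons of other transcripts of the same genes. A match is a run of letters and not evidence of binding, and genes with a match included Ankrd1, which had no read, and Yap1 and Wwtr1, which were not called.

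The other TEAD factors and their cofactors showed no called difference. Of 9 tested genes of the TEAD family and its cofactors, a list that includes Yap1, Wwtr1 and Tead1, edgeR called none with or without the block, while 2.52% of all genes were called with it. DESeq2 and limma-voom called none of them either, and the unblocked edgeR fit had 0 at an unadjusted p under 0.05. The blocked edgeR fit had 1 lower at that level, Vgll3, beside 8.66% of all genes. The median log2 fold change of the list was -0.0038, beside -0.0091 over all 11921 genes. Tead4 had all HPC libraries above the LPC libraries by a narrow margin, at 21.5, 25.3 and 23.0 CPM in HPC, against 17.6, 18.8 and 21.4 CPM in LPC (log2 fold change 0.27, 95% interval from -0.05 to 0.60, edgeR adjusted p = 0.63). Vgll3, whose product competes with YAP and TAZ for TEAD, was at 66.8, 78.1 and 53.4 CPM in HPC, against 94.5, 84.9 and 65.0 CPM in LPC. It was lower in HPC within each number (log2 fold change -0.30 in both fits, edgeR adjusted p = 0.69 without the block and 0.18 with it). Vgll4, a TEAD cofactor that opposes YAP, averaged 105 ± 16.6 CPM in HPC, against 105 ± 19.9 CPM in LPC (SD, n = 3 each). Rbpms, which was listed with them but is not a gene of the TEAD or Vgll families, was at 41.5, 51.3 and 56.9 CPM in HPC, against 44.4, 55.4 and 69.7 CPM in LPC, with overlapping groups (log2 fold change -0.18, edgeR adjusted p = 0.83). Vgll1 and Vgll2 had no read in any library.

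Tead2 and Tead3 varied more between replicate numbers than between HPC and LPC. Tead2 was at 57.7, 77.1 and 92.1 CPM in HPC, against 49.5, 80.4 and 92.6 CPM in LPC for numbers 1, 2 and 3. Tead3 was at 14.4, 17.3 and 27.3 CPM in HPC, against 11.5, 18.2 and 27.9 CPM in LPC. For both genes the libraries numbered 1 were low and those numbered 3 high in either population, and the log2 fold changes were 0.03 for Tead2 and 0.04 for Tead3. Axl, a receptor kinase gene that is listed as a YAP/TAZ target, had the same order, at 12.4, 21.8 and 33.7 CPM in HPC, against 10.5, 25.4 and 40.2 CPM in LPC. Cyr61 ran the other way, with its lowest library of each population numbered 3, and its mean log2 CPM differed between numbers by up to 1.08, more than the 0.69 between HPC and LPC. Among the other members that span between numbers was 0.06 for Yap1, 0.15 for Amotl1, 0.16 for Ajuba, 0.21 for Wwtr1, 0.24 for Tead1, 0.31 for Amotl2, 0.41 for Lats2 and 0.69 for the thinly counted Ctgf. What the replicate numbers stand for is not given in the labels.

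**Figure D3:**
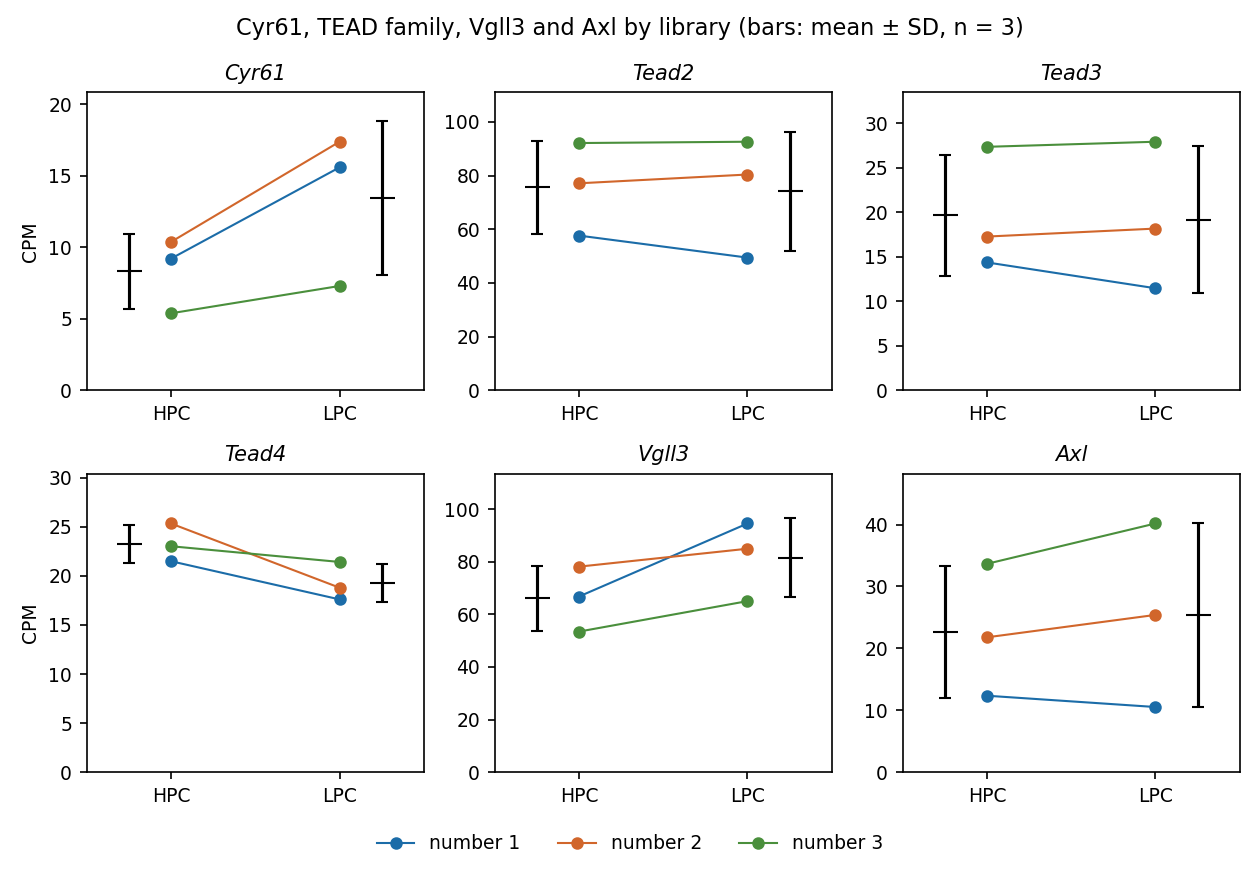
Levels in CPM, on linear axes from 0, are plotted for Cyr61, 3 TEAD genes, Vgll3 and Axl, with HPC left of LPC, lines joining libraries of the same number and black marks for the mean ± SD (n = 3 each). Lines of Tead2, Tead3 and Axl are stacked by number, while all 3 lines of Cyr61 and of Vgll3 are lower at HPC.

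The kinase cassette of the Hippo pathway, which includes Lats2, showed no called difference. All 7 genes were tested, none was called by edgeR or DESeq2 with or without the block or by limma-voom, none had an unadjusted p under 0.05 in edgeR, and their log2 fold changes ran from -0.18 to 0.18. Lats1, the partner of Lats2, averaged 95.6 ± 5.12 CPM in HPC, against 87.0 ± 9.33 CPM in LPC (log2 fold change 0.14, 95% interval from -0.13 to 0.40). The MST kinase genes Stk3, at 52.7 ± 4.47 CPM in HPC, against 52.9 ± 1.21 CPM in LPC, and Stk4, at 125 ± 7.16 CPM in HPC, against 113 ± 5.97 CPM in LPC, had log2 fold changes of -0.0045 and 0.14. Sav1, which encodes the MST scaffold, was lower in every HPC library, at 77.7, 86.4 and 90.1 CPM in HPC, against 92.6, 97.7 and 98.2 CPM in LPC, with a log2 fold change of -0.18 (95% interval from -0.42 to 0.06, edgeR adjusted p = 0.67). Mob1a averaged 309 ± 36.8 CPM in HPC, against 297 ± 31.5 CPM in LPC, and Mob1b, its paralog and likewise a LATS activator, 61.6 ± 6.65 CPM in HPC, against 54.6 ± 5.89 CPM in LPC (SD, n = 3 each). Their log2 fold changes were 0.06 and 0.18.

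Of 37 tested upstream regulators, a list that includes Ajuba, Amotl1 and Amotl2, edgeR called 2 with the block, Ajuba as lower and Rap2a as higher in HPC, and none without it, beside 2.52% of all genes called with the block. At an unadjusted p under 0.05 without it 3 were higher and 2 lower, beside 5.06% and 4.31% of all genes, and these counts are small. The 2 lower genes were the members Ajuba and Amotl2, and of the 34 others 3 were higher and 0 lower. With the block, 5 genes were higher and 4 lower at that level, beside 10.1% and 8.66% of all genes, and the lower ones were not members alone. Rap2a encodes a small GTPase that relays matrix stiffness to the Hippo kinases. It was at 88.3, 79.6 and 87.1 CPM in HPC, against 55.2, 56.3 and 69.0 CPM in LPC, with every HPC library above every LPC library, as in 7.16% of all genes. The log2 fold change of Rap2a was 0.50 without the block (edgeR adjusted p = 0.24) and with it (edgeR adjusted p = 0.0495, against 1.43% of all genes called higher). DESeq2 without the block called it as well (adjusted p = 0.026), beside 1.02% of all genes called higher. Over 17 alternatives its adjusted p ran from 0.00014 without the pair numbered 1, a fit with 1 residual degree of freedom, to 0.79. The blocked call of Rap2a ended without the pair numbered 3 (edgeR adjusted p = 0.083). It also ended without the pair numbered 2 (edgeR adjusted p = 0.38), where 0 of 11927 genes were called. Amot, the founding gene of the angiomotin family, was on the opposite side from Amotl2, at 14.1, 14.9 and 13.6 CPM in HPC, against 7.89, 8.93 and 12.9 CPM in LPC, but was not called (log2 fold change 0.52, edgeR adjusted p = 0.49). Nf2, the tumour suppressor gene that activates LATS at the membrane, averaged 272 ± 10.6 CPM in HPC, against 250 ± 6.80 CPM in LPC (SD, n = 3 each) with a log2 fold change of 0.12 (95% interval from -0.10 to 0.35, edgeR adjusted p = 0.77). The list had 19 positive and 18 negative log2 fold changes.

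A signature of 22 YAP/TAZ target genes, which includes Lats2, Amotl2, Ctgf, Cyr61 and Ankrd1, held genes on both sides. Of its genes 17 were tested, and Ankrd1, Igfbp3, Foxf2 and Nt5e had no read in any library. EdgeR called none of the 17 with or without the block, and DESeq2 and limma-voom without it none. DESeq2 with the block called 1, Amotl2, as lower, beside 1.54% of all genes called lower and 2.59% higher. At an unadjusted p under 0.05 in edgeR without the block 2 were higher and 2 lower, beside 5.06% and 4.31% of all genes. The signature had 9 positive log2 fold changes and 8 negative ones. Their median was 0.0042, and its sign turned under some alternatives, with -0.068 when LPC replicate 1 was left out and 0.081 when HPC replicate 1 was. In 6 of the 17 genes HPC was the lower library of every number, and in 4 it was the higher one, beside 21.3% and 19.6% of all genes tested. Cyr61, Amotl2, Tgfb2, F3, Arhgef17 and Lats2 formed the first set, and Ccdc80, Myof, Rbms3 and Ptpn14 the second. F3, the tissue factor gene, was at 15.3, 23.2 and 18.3 CPM in HPC, against 21.9, 26.8 and 26.3 CPM in LPC (log2 fold change -0.40, edgeR adjusted p = 0.56). Tgfb2, which encodes a secreted growth factor, was at 13.6, 9.61 and 14.7 CPM in HPC, against 16.2, 16.7 and 18.8 CPM in LPC (log2 fold change -0.45, edgeR adjusted p = 0.53). The 2 higher genes were Myof and Ccdc80. Myof was at 137, 170 and 162 CPM in HPC, against 110, 130 and 129 CPM in LPC (log2 fold change 0.34, edgeR adjusted p = 0.47). Ccdc80 was at 1.12, 1.89 and 1.07 CPM in HPC, against 0.810, 0.370 and 0.335 CPM in LPC (log2 fold change 1.45, edgeR adjusted p = 0.38). It rests on 5 to 42 counts per library. Axl had a log2 fold change of -0.17 (95% interval from -1.27 to 0.94, edgeR adjusted p = 0.96), reversed without HPC replicate 1 or LPC replicate 3.

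**Figure D4:**
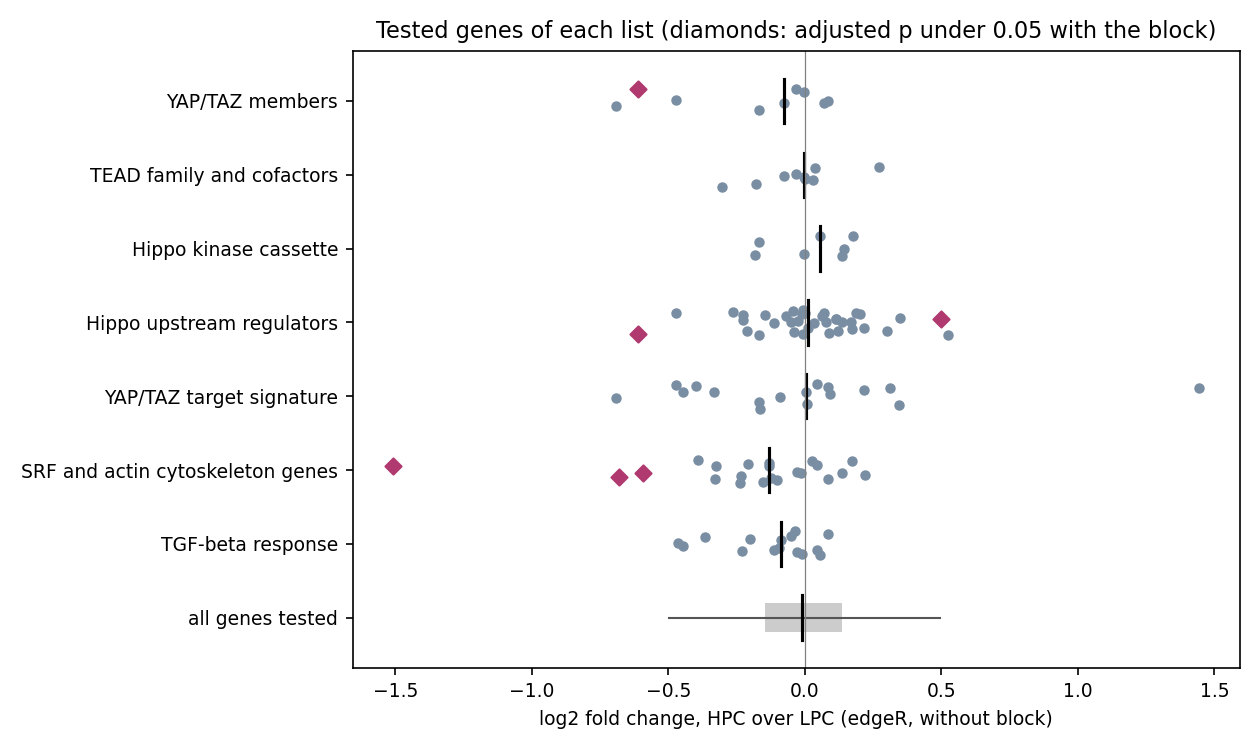
Each point is the log2 fold change of 1 tested gene, HPC over LPC, from edgeR without the block, in the 7 lists named on the vertical axis. Black lines are list medians, diamonds are genes called with the block, and the bottom row gives the 25th to 75th percentile (box) and the 5th to 95th percentile (line) of all 11921 genes. The diamonds are Ajuba, which is in 2 of the lists, Rap2a, Tagln2, Cnn2 and Tpm1.

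Genes of the actin cytoskeleton and of serum response factor (SRF), a pathway that responds to the same mechanical cues and shares targets such as Cyr61 with YAP/TAZ, held 3 genes that were lower in HPC with the block. The list holds none of the 10 members, and 22 of its 29 genes in the count table were tested. Acta2 had no read in any library, and Tagln, Cnn1, Myl9, Tpm2, Fhl1 and Fhl2 did not pass the filter on low counts. EdgeR called Tagln2, Cnn2 and Tpm1 as lower with the block, none as higher, and none in the unblocked fit. Over all genes 1.1% were called lower and 1.43% higher with the block. In the unblocked fit 5 were lower and 0 higher at an unadjusted p under 0.05, beside 4.31% and 5.06% of all genes. DESeq2 without the block called Tagln2 and Tpm1 as lower, beside 0.856% of all genes called lower and 1.02% higher. With the block DESeq2 called Tagln2, Cnn2 and Tpm1 as lower and none as higher, beside 1.54% and 2.59% of all genes. None was called by limma-voom. The list's median log2 fold change was -0.13, against -0.0091 over all genes, and 16 of 22 were negative, beside 51.8% of all genes. Tpm1, the gene of an actin-binding tropomyosin, was at 255, 284 and 254 CPM in HPC, against 426, 411 and 360 CPM in LPC. The groups of Tpm1 did not overlap, and the log2 fold change was -0.59 (SE 0.11, edgeR adjusted p = 0.17 without the block; -0.59, SE 0.09, adjusted p = 0.028 with it). Tagln2, encoding a transgelin, was at 7.47, 5.82 and 2.44 CPM in HPC, against 15.3, 18.3 and 11.05 CPM in LPC, again with no overlap. Its log2 fold change was -1.51 without the block (edgeR adjusted p = 0.24) and -1.58 with it (edgeR adjusted p = 0.020). Cnn2, a calponin gene, was at 15.5, 19.03 and 26.5 CPM in HPC, against 21.5, 33.3 and 43.05 CPM in LPC, where the groups overlapped and HPC was lower within each number (log2 fold change -0.68 and edgeR adjusted p = 0.51 unblocked, -0.67 and 0.034 blocked).

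Over 17 alternatives the adjusted p ran from 5.4e-07 to 0.75 for Tpm1, from 1.7e-20 to 0.88 for Tagln2 and from 3.7e-09 to 1.00 for Cnn2, the lowest of each without the pair numbered 1, a fit with 1 residual degree of freedom. The blocked calls of all 3 ended without the pair numbered 2 (edgeR adjusted p from 0.23 to 0.35), a fit that called 0 of 11927 genes. Those of Tpm1 and Cnn2 also ended without the pair numbered 3 (edgeR adjusted p = 0.068 and 0.14). Myl12a, a myosin light chain gene, had a log2 fold change of -0.33 (edgeR adjusted p = 0.53), and its counts are uncertain because Myl12b overlaps it on the same strand. The genes of SRF and of its co-activators Mkl1 and Mkl2 had log2 fold changes of 0.05, 0.14 and 0.22, none of them called.

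**Figure D5:**
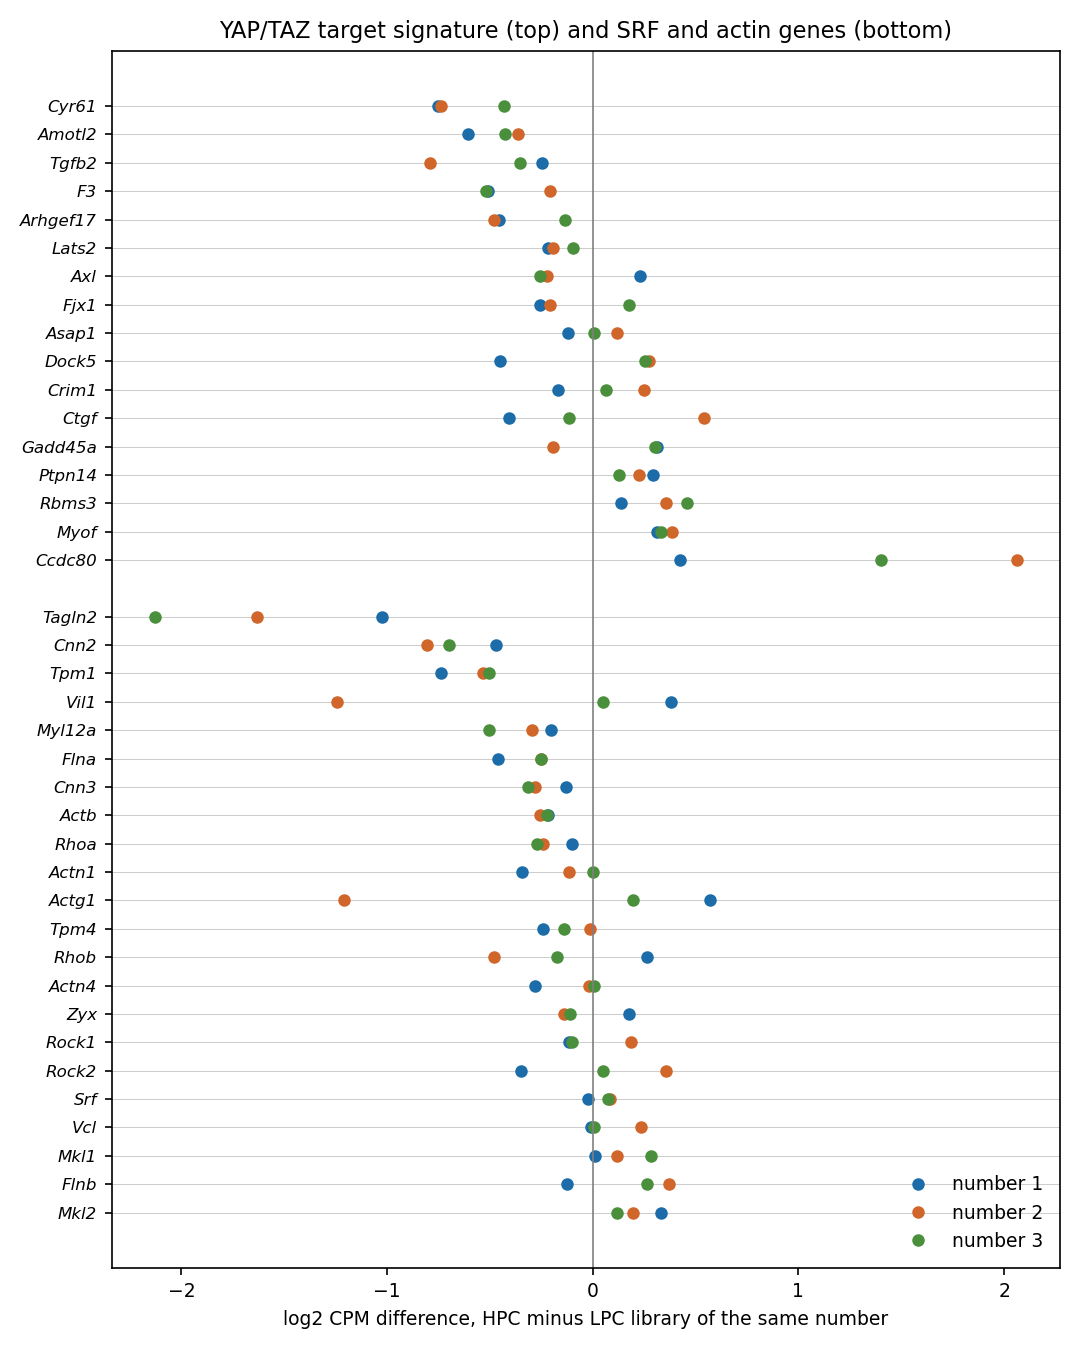
The difference in log2 CPM between the HPC and the LPC library of the same number is plotted for each tested gene of the YAP/TAZ target signature (top) and of the SRF and actin list (bottom), 1 point per number, genes ordered by log2 fold change. Points left of 0 are lower in HPC. All 3 points lie left of 0 for Cyr61, Amotl2, Tagln2, Cnn2 and Tpm1, and on both sides of 0 for Ctgf and Axl.

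Ctgf is also a target of TGF-beta signalling. The TGF-beta response list had 15 tested genes, including Ctgf and Tgfb2, which are also in the target signature. EdgeR and DESeq2 called none of them with or without the block, and limma-voom called none. In edgeR without the block 1, Tgfb2, was lower at an unadjusted p under 0.05, beside 4.31% of all genes. The list's median log2 fold change was -0.09, against -0.0091 over all genes, and 12 of 15 were negative, beside 51.8% of all genes. The median turned positive, at 0.03, without LPC replicate 3. Smad7, the feedback inhibitor of the pathway, was at 4.88, 3.29 and 3.46 CPM in HPC, against 4.79, 5.33 and 5.89 CPM in LPC (log2 fold change -0.46, edgeR adjusted p = 0.63). Tgfb1 averaged 30.1 ± 14.9 CPM in HPC, against 38.8 ± 23.0 CPM in LPC (SD, n = 3 each), with a log2 fold change of -0.37 (edgeR adjusted p = 0.87) that reversed without LPC replicate 3. Pmepa1, another feedback gene, had a log2 fold change of -0.23 (edgeR adjusted p = 0.86), which also reversed without that library.

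The genes with the pattern most like that of Cyr61 over the 6 libraries, among 9389 genes with a mean of at least 10 CPM, were Rrp7a, Eif5a, Rpusd4, Ict1 and Psmg3, with Pearson r of log2 CPM from 0.992 to 0.999. Rrp7a was at 76.4, 78.9 and 63.7 CPM in HPC, against 91.3, 93.2 and 69.8 CPM in LPC, and shared with Cyr61 the low libraries numbered 3. For Ctgf the most alike were Fermt2, Pip5k1b, Tmem135, Magi1 and Efcab7, with r from 0.982 to 0.999. The pattern of Ctgf rests on 14 to 42 counts per library. These likenesses rest on 6 libraries and describe them only.

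The 6 libraries had 14695822 to 22186743 counts and 13715 to 14141 genes with at least 1 count, and mitochondrial genes took 2.07% to 3.21% of the counts. The melanocyte genes Tyr, Tyrp1, Dct, Pmel, Mlana, Mitf and Sox10 were all expressed, summing to 33388 to 36860 CPM in HPC, against 32192 to 34636 CPM in LPC. Tyr, the tyrosinase gene, averaged 919 ± 70.3 CPM in HPC, against 187 ± 109 CPM in LPC. Fibroblast markers summed to 19.4 to 28.6 CPM in HPC, against 17.6 to 34.5 CPM in LPC over 8 genes, overlapping ranges in which Pdgfra alone was called, as lower in HPC with the block. Endothelial markers summed to at most 0.505 CPM in HPC, against 0.317 CPM in LPC, with Kdr, Cdh5 and Emcn at 0, and keratinocyte markers to 2.62 to 4.38 CPM in HPC, against 2.23 to 3.01 CPM in LPC, with Krt5, Krt14, Krt1, Krt10 and Trp63 at 0. Immune markers summed to 8.16 to 15.6 CPM in HPC, against 3.78 to 8.77 CPM in LPC, mostly Cd68, with Ptprc, Itgam and Cd3e at 0. Cd68 had a log2 fold change of 1.10 and was not called by edgeR (adjusted p = 0.42 without the block, 0.13 with it). DESeq2 with the block called it as higher in HPC (adjusted p = 0.018), beside 2.59% of all genes. The part of Pdgfra and Cd68 transcripts in the results above was not tested. In sorted bulk cells, fewer cells that express a gene and less of its RNA per cell cannot be told apart.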

How the data were processed

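RNA was measured in 6 libraries of sorted B16-F3 cells, 3 HPC and 3 LPC, made with a 3' end kit per the labels' protocols. STAR and the build GRCm38 are named in the submitters' processing notes; for the counter, its annotation, its strand setting and any molecular identifiers the entry is: not given in the sources used here. Raw counts per gene are what the authors deposited, and all columns were matched to samples by name. Such counts do not scale with transcript length. Genes were filtered with filterByExpr (11921 of 22740 left), scaled with TMM factors and tested with edgeR 4.0.16 (quasi-likelihood, R 4.3.3), group as the only term, Benjamini-Hochberg adjustment over all genes, threshold 0.05. CPM were computed from the counts with these factors, and log2 CPM with a prior count of 2. Standard errors and 95% intervals derive from the F statistic. The blocked fit adds the replicate number. Deviations from the group means correlated at 0.42, 0.35 and 0.65 for numbers 1, 2 and 3, all above the minimum of 0.1, so libraries were taken as pairs on the evidence of the counts alone, the labels being silent on it. Alternatives were DESeq2 1.42.0, limma-voom (limma 3.58.1), other scalings, no filter, and leaving out libraries or pairs. Members, lists, markers and tests were chosen with earlier results of these data known. Named genes are the members, further core genes of the pathway, list genes called in either edgeR fit and up to 4 genes per list with the largest difference at a mean of at least 1 CPM; other gene names were given after their values were seen. Coordinates are from GENCODE M21, which held 21842 of the 22740 identifiers, and promoters from RefSeq. The 95% intervals cover the variation among the 6 libraries, while the limit given for Ankrd1 covers counting error only.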

Additional observations from a re-analysis of the deposited data

How the results depend on the processing

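Without the block, edgeR called 5 genes of all tested, against 301 with the replicate block, 224 with DESeq2, 493 with DESeq2 and the block and 28 with no filter. Leaving out 1 library gave 0 to 43 calls, and leaving out 1 pair in the blocked fit 0 to 2947 (196 without the pair numbered 3), with 1 residual degree of freedom. EdgeR without the block called no member under TMM or any of the 3 other scalings, without the filter or without any 1 library, and limma-voom called none. The count of members called was 1 with the block, 1 with DESeq2 and 2 with DESeq2 and the block, beside 2.52%, 1.88% and 4.14% of all genes. Without the pair numbered 1 the blocked fit called 3 members, where it called 2947 of 12018 genes. It called 0 members and 0 of 11927 genes without the pair numbered 2, and 1 member and 196 of 11929 genes without the pair numbered 3. Ajuba, Amotl2, Cyr61 and Lats2 stayed lower in HPC under all 17 alternatives, which refit the same 6 libraries or fewer. These are the 4 members lower in HPC within every number, as 21.3% of all genes were. The uncalled genes Sav1 and Vgll3 also stayed lower throughout. The log2 fold change of Yap1 reversed with DESeq2 (0.00051), with DESeq2 and the block (4.3e-05), with RLE scaling (0.00041) and with no filter (0.0089), that of Stk3 with no filter (0.0082), that of Tead2 with upper quartile scaling (-0.0063) and that of Vgll4 with upper quartile scaling (-0.031) or library sizes only (-0.019); the cause was not tested. Leaving out 1 library, the log2 fold change ran from -0.020 to 0.029 for Yap1, -0.14 to 0.072 for Wwtr1, -0.16 to 0.11 for Tead1, -0.0017 to 0.13 for Amotl1, -0.21 to 0.36 for Ctgf, -0.57 to 0.32 for Axl, -0.045 to 0.13 for Mob1a, -0.077 to 0.040 for Stk3, -0.19 to 0.22 for Tead2, -0.28 to 0.40 for Tead3, -0.11 to 0.16 for Vgll4, -0.38 to 0.028 for Pmepa1 and -0.84 to 0.18 for Tgfb1. In the blocked fits without 1 pair it ran from -0.022 to 0.028 for Yap1, -0.11 to 0.095 for Wwtr1, -0.24 to 0.16 for Tead1, -0.044 to 0.16 for Amotl1, -0.27 to 0.26 for Ctgf, -0.022 to 0.19 for Mob1a, -0.061 to 0.044 for Stk3 (0.0091 without the pair numbered 3), -0.022 to 0.10 for Tead2, -0.038 to 0.14 for Tead3 and -0.19 to 0.11 for Vgll4. Ctgf rests on 14 to 42 counts per library and Ankrd1 on 0.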
